A study of Mus musculus with 8 samples.

Results

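Deep intragenic DMRT6 peaks are the regions bound in adult testis chromatin that lie inside a gene but far from where any gene begins. They were chosen by position alone: the middle of the peak had to fall within a gene body of the expression table, more than 10 kb from the nearest 5' end of any gene. Of 14862 peaks in the list, 4148 met this rule, which is 27.9% (exact binomial 95% interval 27.2 to 28.6%). DMRT6 (gene symbol Dmrtb1) is a testis transcription factor with a DM domain, a zinc-binding DNA-binding domain. The study paired 1 chromatin immunoprecipitation (ChIP) library and 1 input library, both from wild type adult testis of a background labelled C57BL/6, Mixed, with RNA-seq of whole testis from C57BL/6 mice at postnatal day 8 (P8). The RNA libraries were 3 wild type and 3 Dmrt6 null. The ChIP antibody was a rabbit polyclonal serum against a 148-residue fragment from the C-terminal end of the protein.

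DM domain proteins bind DNA through the minor groove and can activate or repress the genes they bind. DMRT6 acts in spermatogonia, where it takes part in the change from the mitotic programme to meiosis. Sites inside introns and far from a promoter are common for transcription factors, and such a site can act on its host gene, on another gene or on none. Position alone therefore does not name a target. The ChIP and RNA also differ in age, so the bound chromatin and the measured RNA come from testes with different mixtures of germ cells.

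There was 1 ChIP library, so no peak has a replicate, and the intervals given for peaks cover counting error only. The score is the authors' own value for each peak, its scale is not given in the sources used here, and it ranks peaks within this 1 list. The RNA table corresponds to between 23768316 and 29046494 reads per library. Dmrtb1 stood at 3.03, 4.12 and 3.21 log2 CPM (read counts scaled to library size) in wild type and at -0.88, -0.13 and 0.03 in the null, so the genotype labels held in all 6 libraries. All 7 germ cell markers, 10 Sertoli cell markers and 7 Leydig cell markers exceeded 0 log2 CPM on average, whereas 0 of 4 markers of pachytene and later germ cells did. Ldhc, Pgk2, Prm1 and Tnp1, which define those later cells, averaged -0.24, -2.34, -3.16 and -0.95 log2 CPM. Fewer cells of a type and less RNA per cell cannot be told apart in such bulk samples, and the labels do not say whether replicates came from separate animals, so p-values measure the spread between these samples.

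The strongest deep intragenic peaks lay in genes of varied function. The highest score in the list, 3100, was shared by 7 peaks, 2 of them deep, so that their order is not resolved. The first lay in Anks1, which encodes an ankyrin-repeat adaptor of Eph receptor signalling, at chr17:28136589-28137199 (mm9), 90.6 kb into the gene. The same score was given to a peak in Atp8a1, an aminophospholipid flippase, at chr5:68138681-68139393, 99.6 kb from its 5' end. Nek4, a NIMA-related kinase, held a peak of score 2674 at chr14:31775600-31776317, and B4galnt3, a glycosyltransferase, one of 2481 at chr6:120221002-120221356. These 4 peaks show that high scores occurred both just past the 10 kb limit, at 11.3 kb in Nek4, and near 100 kb.

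The next peaks by score were in A930001N09Rik (2266, chr17:26901180-26901944), in Afap1l1, which encodes an actin-filament-associated protein (1874, chr18:61928762-61929400), and in Smyd3, a SET and MYND domain lysine methyltransferase (1703, chr1:181093087-181094623). The Smyd3 peak was 354 kb into the gene and 1537 bp wide, and 8 further deep peaks lay in the same gene. Arhgef10l and Arhgef7, both guanine nucleotide exchange factors, followed at 1589 (chr4:140198365-140198675) and 1581 (chr8:11825575-11826100). The Arhgef7 peak sat 91.2% of the way along the gene, close to its 3' end. The tenth was in Zfp957, a zinc finger gene, at 1340 (chr14:79613058-79613514), with a second peak of score 119 whose middle was 429 bp away.

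Most members were far weaker than these. The median score was 98.98 (quartiles 79.8 and 168.8), 25 peaks reached 1000 and the lowest was 50.02. The median width was 174 bp (quartiles 147 and 235). Peaks within 1 kb of a 5' end had a lower median score, 85.54 (95% interval 83.82 to 87.26, against 97.03 to 101.28 for deep peaks), although they were wider, at 200 bp. Intergenic peaks more than 10 kb from a 5' end were also lower, at 92.18 (90.81 to 93.75), and intragenic peaks 1 to 10 kb from a 5' end were not separated from deep ones by these intervals, at 103.64 (99.69 to 108.99). Intergenic peaks 1 to 10 kb from a 5' end stood at 104.53 (101.21 to 108.92), an interval that just meets that of deep peaks.

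In the upper tail, a score of at least 200 was reached by 811 deep peaks, or 19.6% (18.4 to 20.8%), by 11.5% of peaks at gene starts (10.4 to 12.8%) and by 14.7% of distant intergenic peaks (13.7 to 15.7%). For peaks 1 to 10 kb from a 5' end it was 21.2% (19.3 to 23.1%) if intragenic and 21.4% (19.2 to 23.7%) if intergenic. Both of these intervals overlap that of deep peaks. At a score of at least 500 the shares were 3.25% of deep peaks (2.74 to 3.84%), 2.35% of peaks at gene starts (1.81 to 2.99%), whose interval overlaps, and 1.79% of distant intergenic ones (1.43 to 2.21%). Peaks 1 to 10 kb from a 5' end stood at 4.18% (3.31 to 5.20%) if intragenic and 4.23% (3.22 to 5.45%) if intergenic, again overlapping deep peaks. When all 14862 peaks were divided by score into 5 equal groups, deep peaks made up 22.5% of the lowest (21.0 to 24.0%) and 32.1% of the highest (30.4 to 33.8%). Among deep peaks the score did not follow distance: Spearman's rank correlation across peaks was -0.01, a description over 4148 peaks of 1 library, and that between score and width was 0.66.

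**Figure D1:**
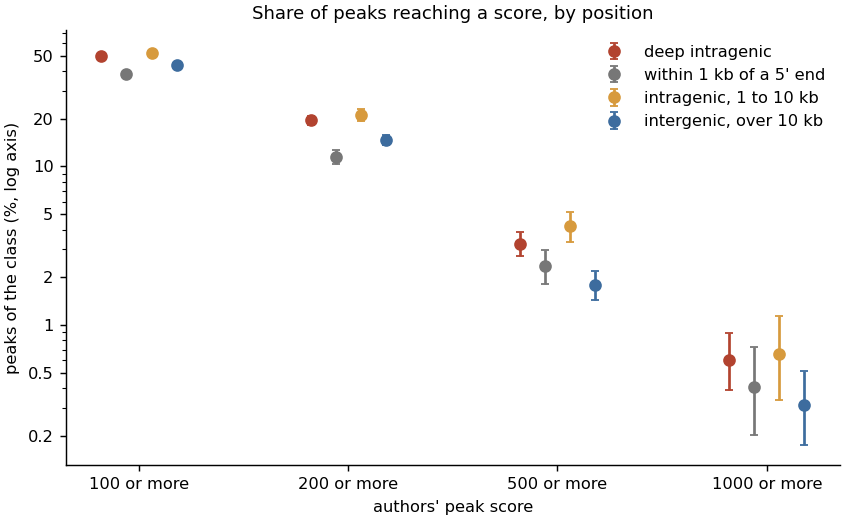
Share of peaks in each positional class (vertical axis, %, log scale) that reached the authors' score given on the horizontal axis, with exact binomial 95% intervals as bars. At a score of 200 or more, deep intragenic peaks stood at 19.6% and peaks at gene starts at 11.5%.

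The median deep peak was 37.6 kb from the nearest 5' end (quartiles 20.2 and 78.95 kb). In all, 1669 were more than 50 kb away and 791 more than 100 kb. The farthest was in Nrxn3, a neurexin of the presynaptic membrane, at chr12:91142383-91142564, 834 kb from any 5' end, with a score of 87.04. It was followed by peaks in Sox5, an SRY-box transcription factor (777 kb, score 429, chr6:143892935-143893221), in Nell1, a secreted EGF-repeat protein (722 kb, score 86.3, chr7:57951950-57952100), and in Lrrc4c, a synaptic adhesion gene (690 kb, score 93.9, chr2:97099415-97099550). Of these 4, the Sox5 peak alone exceeded the median score of deep peaks.

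The peaks nearest to the 10 kb limit had scores on both sides of the median. Just inside it were peaks in Cad (10005 bp, score 59.0), Afap1l1 (10017 bp, 692) and Akt1 (10038 bp, 63.2). Just outside were peaks in Sort1 (9996 bp, 367), Por (9975 bp, 107) and Ptpn14 (9973 bp, 189).

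Peaks more than 10 kb from gene starts were denser inside genes than between them. The eligible sequence, meaning bases more than 10 kb from every 5' end, held 5.39 deep peaks per Mb inside gene bodies (exact Poisson 95% interval 5.23 to 5.56, over 769 Mb). Between genes it held 3.32 per Mb (3.22 to 3.41, over 1448 Mb). The ratio was 1.63 (1.56 to 1.70), without matching for distance. Intergenic sequence was counted between the outermost genes or peaks of each chromosome, and assembly gaps or stretches that cannot be mapped were not taken out.

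Within bands of distance the ratio was smaller except in the farthest band. That band has no upper limit, so distance is not matched within it. Over all chromosomes, deep peaks reached at most 834 kb from a 5' end and intergenic peaks 2892 kb. On autosomes at 10 to 20 kb, density was 7.89 per Mb inside genes (7.41 to 8.39) and 7.58 between them (7.08 to 8.11), a ratio of 1.04 whose interval, 0.949 to 1.14, includes 1. The ratio was 1.12 at 20 to 50 kb (1.04 to 1.20), 1.25 at 50 to 100 kb (1.13 to 1.37) and 1.74 beyond 100 kb (1.60 to 1.90). Density fell with distance in both kinds of sequence, to 3.38 per Mb inside genes and 1.94 between them beyond 100 kb. Among peaks with a score of at least 200, the ratio was 2.17 overall and 3.04 beyond 100 kb.

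**Figure D2:**
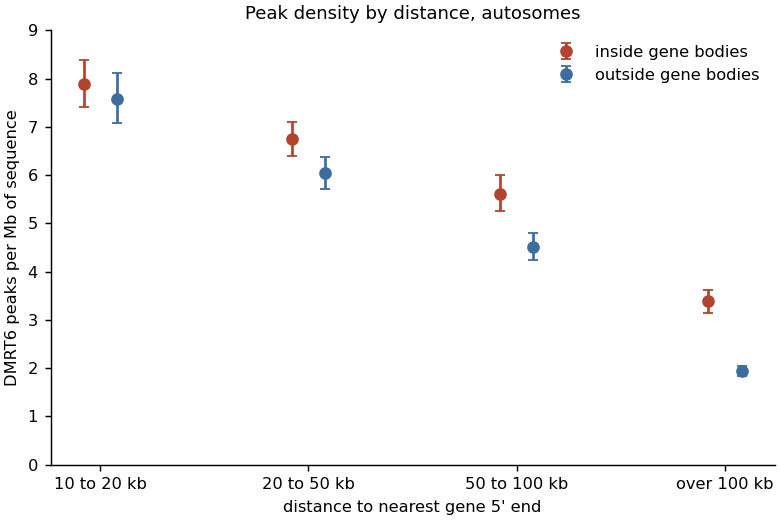
DMRT6 peaks per Mb of autosomal sequence (vertical axis) by distance to the nearest gene 5' end (horizontal axis), inside gene bodies and between genes, with exact Poisson 95% intervals. The intervals overlap at 10 to 20 kb (7.89 and 7.58) and are apart in every farther band, with 3.38 and 1.94 beyond 100 kb.

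The X chromosome carried few members. It held 15 deep peaks in 35.7 Mb of eligible gene sequence, or 0.420 per Mb (0.235 to 0.693), against 5.64 per Mb on autosomes. At a score of at least 100 the X density was 0.084 per Mb (0.017 to 0.246). The X is single-copy in diploid male cells, and read coverage by chromosome was not examined. Whether coverage contributed to this difference was not tested. Intergenic sequence of the X held 1.06 per Mb (0.876 to 1.28), so the ratio of gene bodies to intergenic sequence was 0.396 (0.214 to 0.681), the reverse of the autosomal 1.61. The X peak with the highest score was in Hcfc1, a transcriptional coregulator of the host cell factor family, at 375.95. Chromosome 6 had the lowest autosomal density, 4.05 per Mb, and chromosome 17 the highest, 8.52. The 1 Mb window with most members was also on chromosome 17, from 30 to 31 Mb, where 16 peaks lay in Btbd9, Dnahc8, Mdga1 and Zfand3.

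Within their hosts, deep peaks were spread along the whole length. With each gene cut into 5 equal lengths from its 5' to its 3' end, density was 5.66, 6.03, 5.69, 5.54 and 5.51 per Mb of eligible sequence. Of 4260 pairs of a peak and a host, 289 (6.78%) were within 5 kb of the host's 3' end. Most members stood alone, with a median of 33.5 kb between the middle of a peak and that of the nearest other peak of any class. Another peak was within 2 kb for 387 (9.33%), against 22.8% of peaks at gene starts and 8.95% of distant intergenic peaks.

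The 4148 peaks fell in 2629 host genes, which is 21.4% of the 12307 genes with any eligible sequence. A single deep peak was found in 1758 hosts, 2 or 3 in 702, and 4 or more in 169, and 103 peaks lay in more than 1 gene. Hosts were long genes, with a median length of 94.3 kb against 30.5 kb for genes with eligible sequence and no deep peak. Genes with more eligible sequence have more room for a peak, so this difference follows at least in part from the rule. A peak at the host's own start was about as common in hosts (405, or 15.4%) as in genes with eligible sequence but no deep peak (1500 of 9678, or 15.5%). The nearest 5' end belonged to a host for 2476 deep peaks (59.7%), so for the others it was the start of a different gene.

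The hosts with most members were Fgfr2, a fibroblast growth factor receptor, with 19, Cdh13, a cadherin anchored to the membrane by lipid, with 13, and Caln1, Camta1, Dnahc8 and Kalrn with 12 each. The Fgfr2 model in the table spans 3009 kb and contains the starts of 31 other genes, and 4140 deep peaks remain when it is left out. Several of its peaks also lay in other genes, among them Tacc2, Cpxm2, Plekha1 and Ctbp2. The rank of Fgfr2 therefore rests on the span of this model, whose correctness was not checked. Camta1, a calmodulin-binding transcription activator, held peaks from 227 to 771 kb with a highest score of 1062. Dnahc8, an axonemal dynein heavy chain of the sperm tail, packed its 12 peaks into 251 kb, and the highest scored 342. Kalrn, a guanine nucleotide exchange factor, had no peak above 179.42, and Cdh13 none above 121.28. Per Mb of gene, and among hosts with at least 4 peaks, BC057022 (4 peaks), Tpcn1, an endolysosomal cation channel (4), Cnnm1, of a magnesium transporter family (4), and Epc1, a subunit of the NuA4 histone acetyltransferase complex (5), came first. All 5 Epc1 peaks lay between 20.8 and 26.7 kb from its start.

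**Figure D3:**
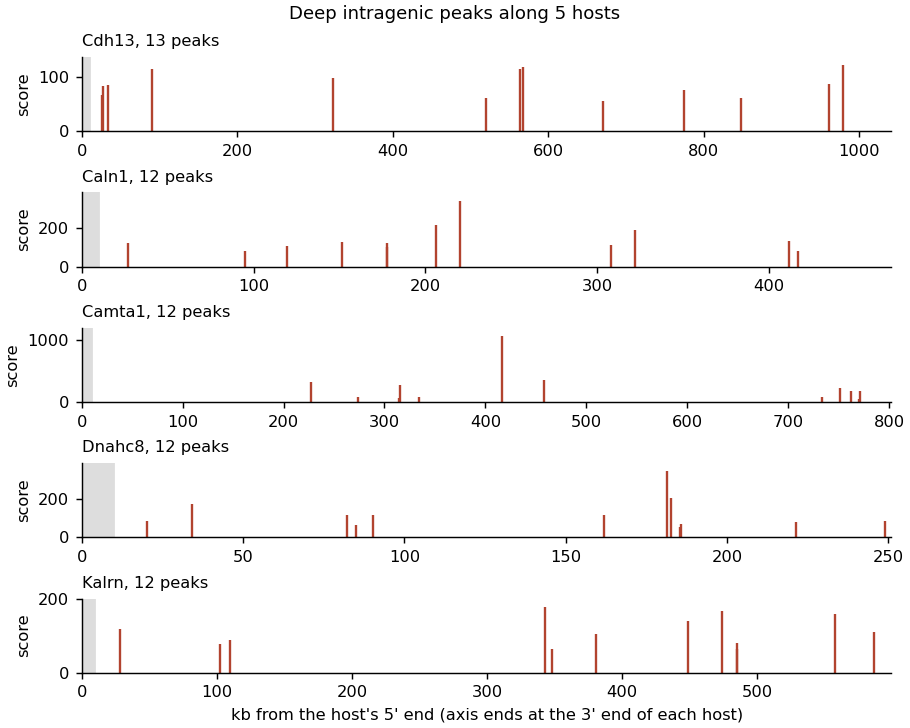
Positions of deep intragenic peaks along 5 hosts (horizontal axis, kb from the 5' end of the host, ending at its 3' end) and the authors' score of each (vertical axis), with the first 10 kb shaded. The Camta1 peaks lie between 227 and 771 kb and the Dnahc8 peaks are spread over 251 kb.

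Density was lower in genes with little P8 RNA. Autosomal genes below 0 log2 CPM held 4.22 deep peaks per Mb (3.87 to 4.59), and those above it, in 4 equal groups from low to high level, held 5.11, 6.68, 6.16 and 6.39. The lowest of these groups (4.80 to 5.42) was separated by its interval from the other 3. Genes with a peak at their own start held 6.64 per Mb (6.14 to 7.17) and those without one 5.54 (5.36 to 5.72). Within the groups by level, from the lowest above 0 to the highest, the pairs were 5.18 and 5.10, 8.13 and 6.43, 6.38 and 6.10, and 6.34 and 6.41, and in the second group alone the intervals did not overlap. Length moved with density: when genes were ranked by eligible sequence and cut into 5 equal groups, the longest held 4.93 per Mb (4.74 to 5.12) and the others 7.25 to 8.10. In all, 361 hosts (13.7%) were below 0 log2 CPM at P8, against 18.6% of other genes with eligible sequence.

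Among 14 gene lists, members were found in hosts of every list except the DMRT family, where 0 peaks fell in 3 genes with eligible sequence, a count that allows up to 39.4 per Mb. Of genes of undifferentiated spermatogonia, 4 of 12 with eligible sequence were hosts: Pax7, a paired box factor of rare stem-like cells (best peak 495), Etv5, an ETS factor of self-renewal (117), Gfra1, the GDNF co-receptor (90.3), and Taf4b, a TFIID subunit. Of genes of differentiating spermatogonia, 3 of 16 were hosts: Elavl2, an RNA-binding protein, and the DNA methyltransferases Dnmt3a (84.8) and Dnmt3b (50.02, the lowest score of any member).

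Meiotic prophase genes held 1 deep peak among 31 genes with eligible sequence, 0.691 per Mb (0.0175 to 3.85, over 1.45 Mb). That peak was in Mei1, needed for meiotic double-strand breaks, at chr15:81912947-81913175, with a score of 178. The piRNA pathway, which silences transposons in germ cells, had 3 hosts of 19: Mov10l1, an RNA helicase (376, chr15:88842360-88842686), Tdrd5, a Tudor domain protein, and Piwil2, a Piwi protein. Regulators of spermatocytes and spermatids had 3 hosts of 16, Rfx4, Sox30 and Rfx3, with 4.98 peaks per Mb.

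The retinoic acid pathway, which starts spermatogonial differentiation, had 5 hosts of 17. The receptor gene Rara held the strongest of these peaks, 437, at chr11:98825144-98825442, nearest to the start of Gjd3 rather than of Rara. Bcmo1, a carotenoid cleavage enzyme, the receptor Rarb and the retinol transporter Stra6 each had 1 peak, none above 92.21.

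Among regulators of chromatin, 10 of 24 genes of histone acetylation and 13 of 38 of histone methylation and Polycomb were hosts. Of the latter, Prdm16, a PR domain factor, had 7 deep peaks, with a highest score of 462. Density was 6.04 per Mb for histone acetylation (3.38 to 9.97) and 8.86 for histone methylation and Polycomb (5.61 to 13.3), where 7 of 23 peaks were those of Prdm16. Both intervals include the 7.25 per Mb of the second longest of the 5 groups of genes by eligible sequence.

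In signalling, 10 of 28 Wnt and Notch genes were hosts at 9.28 per Mb (5.74 to 14.2), among them the co-receptor Lrp5 (597), the Notch coactivator Maml3 (410), the effector Tcf7l2 (378) and Apc (164). That interval includes the 7.25 per Mb of the second longest of the 5 groups of genes by eligible sequence. Of TGF-beta, activin and BMP genes, 14 of 34 were hosts at 7.61 per Mb, led by the latent binding protein Ltbp1 (286) and the receptor Tgfbr3 (278). Lipid flippases and calcium pumps had 10 of 23, and 5.51 per Mb. This last list was drawn up knowing which genes held the top peaks, so its count is no independent evidence.

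A list of long genes, most of them neuronal genes of adhesion and synapse, was mostly at low level in P8 testis. It also includes genes of other function, such as the transcription factor Sox5 (4 peaks) and Wwox (8 peaks). Of its genes with eligible sequence, 33 of 55 were hosts, with 99 peaks in 52.8 Mb, or 1.87 per Mb (1.52 to 2.28). Among its genes at or above 0 log2 CPM the density was 2.56. The longest of the 5 groups of autosomal genes by eligible sequence held 4.93 per Mb (4.74 to 5.12), without matching for length within it. The highest-scoring peak of the list was in Dlgap1, a postsynaptic scaffold (875, chr17:71013365-71013807, 695 kb into the gene).

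**Figure D4:**
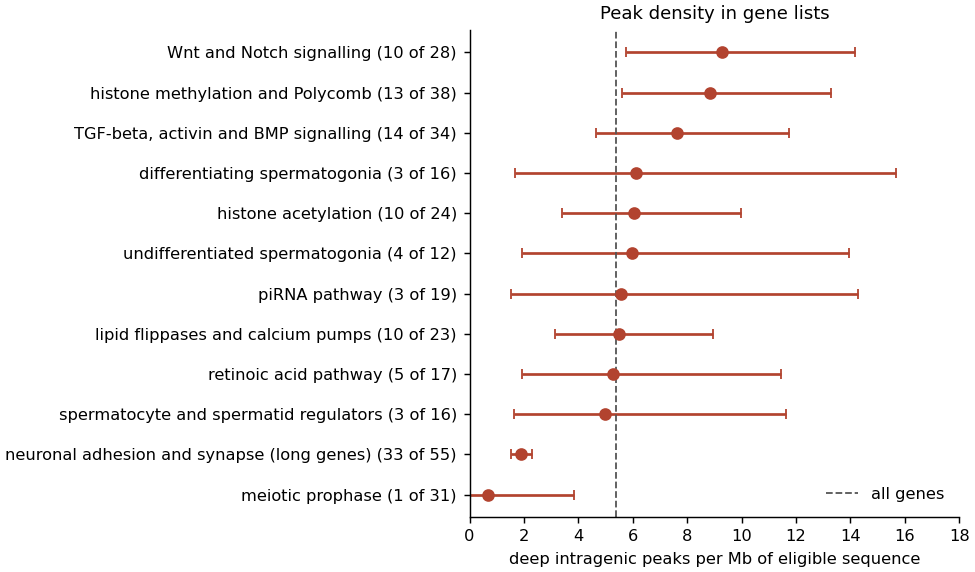
Deep intragenic peaks per Mb of eligible sequence (horizontal axis) in 12 gene lists (vertical axis, with hosts of genes that have such sequence in brackets) with exact Poisson 95% intervals, and the density over all genes as a dashed line. The list of long, mostly neuronal genes (1.87) and that of meiotic prophase genes (0.691) lie lowest among lists with any peak.

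Host genes were next compared between Dmrt6 null and wild type testis at P8, which asks whether genes that carry such a peak in the adult differ in RNA without DMRT6. No host changed by the test across all genes: limma with Benjamini-Hochberg adjustment called 0 of 2268 tested hosts, against 0.00601% of all 16634 tested genes (1 gene), and the smallest adjusted p of a host was 0.755. At an unadjusted p under 0.05 there were 93 hosts (4.10%), against 3.47% of all tested genes. Of these hosts 64 were higher in the null, or 2.82% against 1.63% of all tested genes, and 29 were lower, or 1.28% against 1.85%. Without null replicate 3 the shares were 2.16% against 1.53% higher and 1.23% against 1.60% lower. The ranges of the genotypes did not overlap for 238 hosts (10.5%), against 11.1% of all tested genes. The shares over both directions are near the background, and those of each direction apart lean to higher values in the null. Voom on the recovered reads also called 0 hosts, with 87 (3.84%) under an unadjusted p of 0.05 against 3.33% of all tested genes. Limma with array weights, whose weights did not converge, called 19 hosts (0.838%) against 0.818% of all tested genes. With 3 libraries per genotype an exact permutation test of 1 gene cannot go below 0.1.

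The 5 hosts of smallest p in each direction show the size of the differences. Cachd1, a protein related to auxiliary subunits of calcium channels, stood at 3.15, 2.98 and 3.33 log2 CPM in wild type and 3.92, 3.89 and 4.39 in the null. The genotypes did not overlap, and the difference was 0.92 (SE 0.19, limma adjusted p = 0.755). Osbpl6, an oxysterol-binding-protein relative, was at 2.63, 2.56 and 2.71 in wild type and 3.20, 3.18 and 3.20 in the null, again without overlap, a difference of 0.56 (SE 0.15). Adcy8, an adenylyl cyclase, went from 1.43, 0.60 and -0.18 to 2.11, 2.36 and 1.78, with a wide spread in wild type and a difference of 1.46 (SE 0.40). Chdh, a choline dehydrogenase, and Anks1b, a neuronal adaptor, differed by 0.70 (SE 0.19) and 0.81 (SE 0.22), and both were also apart in all libraries.

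In the other direction, Kif11, the mitotic spindle kinesin, stood at 7.52, 7.52 and 7.54 in wild type and 7.32, 7.16 and 7.17 in the null, a small difference of -0.31 (SE 0.09) with a tight spread. Socs2, a suppressor of cytokine signalling with a deep peak of score 681 at chr10:94867432-94867857, stood at 7.55, 7.27 and 7.27 against 7.03, 7.06 and 6.93, a difference of -0.36 (SE 0.11). Rimbp2, a presynaptic scaffold, was at 2.25, 1.67 and 1.68 against 0.46, 1.15 and 1.13, a difference of -0.96 (SE 0.29). Arhgap15, a Rac-directed GTPase activator, was at 1.05, 0.35 and 0.90 against -0.12, -0.02 and -0.58. Clca1, of a chloride channel regulator family, differed by -0.54 (SE 0.17). In each of these 5 the null libraries all lay below the wild type ones, and the limma adjusted p was 0.755.

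Hosts of the strongest peaks gave no call either. Anks1 was at 4.04, 4.34 and 4.12 in wild type and 4.48, 4.41 and 5.42 in the null, a difference of 0.60 (SE 0.26). The null libraries were above the wild type ones, with null replicate 3 about 1 log2 unit above the other two. Atp8a1 stood at 5.22, 5.30 and 5.62 against 5.40, 5.43 and 5.49, and the genotypes overlapped. Smyd3, with 9 peaks, was at 4.87, 4.89 and 5.01 against 4.98, 4.99 and 4.82, also overlapping. Nek4 and B4galnt3 differed by 0.17 (SE 0.11) and 0.44 (SE 0.25), with the null libraries above the wild type ones. The genotypes overlapped for A930001N09Rik, Afap1l1, Arhgef10l and Arhgef7. Camta1, with 12 peaks, differed by 0.32 (SE 0.13) and did not overlap. Sox5, host of the second farthest peak, stood at 3.38, 3.27 and 3.33 against 2.94, 2.75 and 2.90, without overlap, a difference of -0.46 (SE 0.15). Rara stood at 5.30, 5.04 and 4.80 against 5.10, 4.58 and 6.05, so that its genotypes overlapped and null replicate 3 was the highest.

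Below the threshold of any call, hosts leaned to higher values in the null. The change was above 0 for 1530 hosts (67.5%) against 51.7% of all tested genes, and the median change was 0.10 log2 units in hosts and 0.01 over all tested genes. It was 0.09 in hosts with 1 peak, 0.13 with 2 or 3 and 0.17 with 4 or more. Among hosts by list, the change was above 0 in 10 of 10 for histone acetylation (median 0.28) and 12 of 13 for histone methylation and Polycomb (0.21). It was above 0 in 9 of 23 tested for the long, mostly neuronal genes (-0.04), and none of the hosts of these lists was called. Brd3, a bromodomain gene in the first of these lists, changed sign when null replicate 3 was left out.

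A single library carried most of the lean in the median change, while part of the lean in the share above 0 remained without it. Taken from the mean of the 6 libraries, the median host stood at -0.04, -0.03 and -0.07 in wild type and at -0.00, -0.03 and 0.18 in the null, so null replicate 3 was the high one. Without it, the median change was 0.03 in hosts and 0.00 over all tested genes, and 0.02 in hosts with 4 or more peaks. The change was then above 0 for 60.1% of hosts and 51.1% of all tested genes. In the longest of 5 groups of genes by eligible sequence, not matched for length within the group, null replicate 3 stood at 0.19 for hosts and 0.00 for genes with no deep peak. The cause of the position of null replicate 3 was not tested.

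**Figure D5:**
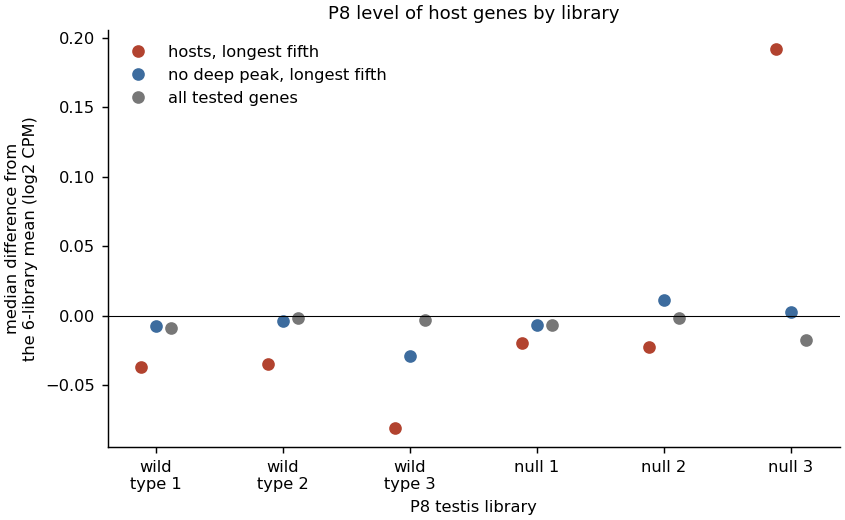
Median difference of each P8 testis library (horizontal axis) from the mean of the 6 libraries (vertical axis, log2 CPM) for hosts and for genes with no deep peak in the longest of 5 groups by eligible sequence, and for all tested genes. Hosts in null replicate 3 stand at 0.19 while the genes with no deep peak stand at 0.00.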

How the data were processed

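The build mm9 and the tools STAR 2.3.0e, Bowtie2, Picard and edgeR were used, per the submitters' processing notes, which as given here do not say for which step. The authors deposited a log2 CPM table of 22744 genes for the 6 RNA libraries, and a list of 14862 peaks with a score for each, made by MACS 1.4 from 1 ChIP and 1 input library, per the file headers and names. The score is the authors' own, and its scale is not given in the sources used here.

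Gene bodies and 5' ends came from the deposited table. A peak was deep intragenic where its middle lay in a gene body more than 10 kb from every 5' end. Densities used exact Poisson and shares exact binomial (Clopper-Pearson) 95% intervals (scipy 1.17.1). Genes with a mean log2 CPM of at least 0 (16634) were compared with limma 3.58.1 (R 4.3.3, trend, genotype the only term), with Benjamini-Hochberg adjustment over all of them and a threshold of 0.05. Whole reads were recovered from the steps of the log2 CPM values within a tolerance of 1e-06, and gave the depth and the alternatives on reads. Scripts were tested on simulated data.

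Named were the 10 peaks of highest score, the 6 hosts with most peaks and 4 with most per Mb, the 4 farthest peaks, 3 on each side of the limit, 5 hosts of smallest p in each direction, and up to 4 per list. The members and lists were chosen with earlier results of these data known. Sequence under the peaks was not analysed here. Values of some genes and of 1 list are not reported here.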

Additional observations from a re-analysis of the deposited data

How the results depend on the processing

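Over all chromosomes together, each alternative that gave a density kept deep peaks denser than intergenic ones. Their number was 2055 at a score of at least 100 and 811 at 200. Their density per Mb was 5.72 with a limit of 5 kb, 4.92 with 20 kb, 5.69 over gene bodies at or above 0 log2 CPM, 2.67 at a score of at least 100 and 1.05 at 200. Taking the best peak of each host raised the median score to 113.43. The fit with array weights, whose convergence was not achieved, called 19 hosts (136 genes in all) and placed 643 hosts (28.4%) under an unadjusted p of 0.05, and the same 28.4% of all tested genes. In the other 13 alternatives 0 hosts were called. Leaving out 1 library at a time put 31 hosts (1.37%, without wild type replicate 1) to 415 (18.3%, without null replicate 2) under that p, against 1.61% and 15.3% of all tested genes, and 41 (1.81% against 1.47%) without wild type replicate 3.

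The libraries gave no sign that the replicate numbers of the labels pair the samples, though low correlations cannot show how samples were collected. With the genotype mean of each gene taken off, same-numbered libraries correlated at -0.09, -0.22 and -0.04. Differently numbered pairs of a wild type and a null library correlated at -0.14 to 0.23. A replicate block called 0 hosts, and 2 genes in all by adjusted p, with 62 hosts (2.73%) and 2.12% of all tested genes under an unadjusted p of 0.05.

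None of the 10 hosts named by p changed direction. They were picked by p in these same data and their genotypes did not overlap, so leaving out 1 library could not reverse them. With array weights Cachd1, Chdh, Adcy8, Osbpl6, Anks1b and Rimbp2 passed the threshold (limma adjusted p 0.0182 to 0.0442). Dmrtb1, at an adjusted p of 0.0516, passed it in 7 of 13 alternatives. Of the 66 named genes in the fit, 28 changed direction in at least 1 alternative, none of them called in the main comparison, and the cause was not tested. With array weights the null minus wild type change was opposite in sign for A930001N09Rik (0.040), Afap1l1 (0.050), Arhgef10l (-0.091), Tpcn1 (-0.023), Epc1 (-0.051), Nrxn3 (-0.22) and Gfra1 (0.12), and for Rarb (-0.37), Ltbp1 (-0.33), Tgfbr3 (-0.33), Ltbp2 (-0.44), Maml3 (-0.074) and Tcf7l2 (-0.014). Median centring did so for Smyd3 (-0.040), Dnahc8 (-0.030), Epc1 (-0.037), Ltbp1 (-0.031) and Atp2b1 (-0.023). Quantile normalization did so for Smyd3 (-0.039), Dnahc8 (-0.031), Epc1 (-0.040) and Ltbp1 (-0.022). For Smyd3 the change was -0.0012 with voom and -0.00092 with a prior of 1 read. Leaving out 1 library at a time gave ranges across 0 for A930001N09Rik (-0.22 to 0.038), Afap1l1 (-0.13 to 0.014), Arhgef10l (-0.065 to 0.34), Atp8a1 (-0.026 to 0.18), Brd3 (-0.045 to 0.38), Cdh13 (-0.46 to 0.16) and Dlgap1 (-0.17 to 0.079). Such ranges were also seen for Dnahc8 (-0.32 to 0.27), Epc1 (-0.042 to 0.039), Etv5 (-0.44 to 0.015), Fgfr2 (-0.20 to 0.11), Gfra1 (-0.093 to 0.086), Ltbp1 (-0.16 to 0.21) and Ltbp2 (-0.053 to 0.70). They included those of Maml3 (-0.0050 to 0.33), Nell1 (-0.41 to 0.17), Nrxn3 (-0.23 to 0.23), Rara (-0.21 to 0.53), Rarb (-0.14 to 0.32), Rfx3 (-0.17 to 0.077) and Smad7 (-0.17 to 0.38). The last were Smyd3 (-0.024 to 0.063), Sox30 (-0.41 to 0.19), Stra6 (-0.21 to 0.81), Tcf7l2 (-0.090 to 0.26), Tgfbr3 (-0.13 to 0.30) and Tpcn1 (-0.071 to 0.51).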
